A study of Mus musculus with 18 samples.

Results

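The ETS genes described here are Ets1, Ets2, Ehf, Elf3, Elf1, Elk1, Elk3, Etv4, Etv5 and Fli1, which were taken by symbol from a table of 14521 named genes. All 10 were found, and they stand beside 12 other genes of the family in the same table. ETS proteins are transcription factors that bind DNA through a shared winged helix-turn-helix domain, which recognises a GGAA core, and they differ in their other domains and in the cells that make them. Many of them are switched on or off through phosphorylation by the Ras-ERK kinase cascade, a pathway that is often overactive in squamous tumours of skin. Others are known mainly from epithelial differentiation, from endothelium or from blood cells.

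Expression was measured by RNA sequencing in 6 chronically UV-irradiated female littermates of SKH-1E, an outbred hairless mouse strain that forms papillomas and squamous carcinomas under solar-simulated light. Each mouse gave 3 samples after irradiation had stopped, namely nonlesional skin (CHR), a low-grade papilloma (PAP) and a low-grade cutaneous squamous cell carcinoma (SCC), so that every stage had n = 6 and all stages, CHR included, had received UV. By the study's methods these mice lack the Hairless gene, and no other allele was altered by design. Unirradiated skin was not analysed here. Each library came from bulk tissue of a different lesion or skin site, and mice are named by the numbers of the sample titles, 2, 3, 7, 8, 9 and 10.

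Values are normalised read counts, that is, reads recovered from the deposited scores and divided by the size factor of the library. Recovered depth ran from 15.4 to 21.0 M reads per library. Fold changes, their errors and their adjusted p-values came from 1 limma fit on log2(value + 1) of the deposited scores, with the mouse as a block and Benjamini-Hochberg adjustment over 14521 genes. A gene was called at an adjusted p under 0.05. This scale understates the change of weakly expressed genes, and 95% confidence intervals are given where they matter.

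Markers of several cell types differed between the tissues. Keratinocyte markers were detected in every library, and from CHR to PAP 11 of 16 rose and 2 fell. Skeletal muscle markers fell in PAP (10 of 10), as did sebaceous gland markers (8 of 8), 7 of 8 adipocyte markers and 7 of 9 dermal fibroblast markers. Myeloid markers fell too (13 of 14), as did 10 of 11 T and NK cell markers and both measured B cell markers. Of 4 melanocyte markers 0 were called in PAP vs CHR by limma or limma-voom, with 0 at an unadjusted p under 0.05, and of 7 pericyte and smooth muscle markers 5 were lower. No marker on these lists was at 0 in all 6 libraries of a stage. In bulk samples, fewer cells of a type and less RNA per cell cannot be told apart, which holds for every value below.

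Promoter sequences are shown for 3 members that differed between skin and papilloma, namely Elf3 and Elk3, which were higher in PAP, and Elk1, which was lower. RefSeq entries (GRCm38.p6) were matched for 6 of the 10 members, and the stretches shown lie within 250 bases before the RefSeq start site and in no exon of GENCODE M21. For Elf3, 96 bases next to the start were left out because an exon of another transcript covers them. Capitals mark the ETS core GGAA, or TTCC where it lies on the other strand. Each sequence reads 5′ to 3′ on the strand of the gene, from chr1:135258569-135258722, chr10:93311160-93311409 and chrX:20950609-20950858, all on the minus strand.
Elf3: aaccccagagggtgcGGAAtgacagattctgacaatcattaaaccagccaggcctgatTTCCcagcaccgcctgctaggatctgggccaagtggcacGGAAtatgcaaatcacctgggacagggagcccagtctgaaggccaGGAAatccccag
Elk3: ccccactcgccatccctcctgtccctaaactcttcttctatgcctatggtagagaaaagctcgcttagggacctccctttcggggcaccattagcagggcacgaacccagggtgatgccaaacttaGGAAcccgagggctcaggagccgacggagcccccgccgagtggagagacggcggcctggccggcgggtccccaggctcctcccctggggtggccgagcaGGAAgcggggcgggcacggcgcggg
Elk1: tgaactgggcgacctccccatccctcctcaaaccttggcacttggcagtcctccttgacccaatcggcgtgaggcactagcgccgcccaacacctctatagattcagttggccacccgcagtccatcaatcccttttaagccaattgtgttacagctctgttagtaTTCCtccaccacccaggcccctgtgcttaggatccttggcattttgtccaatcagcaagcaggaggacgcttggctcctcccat
The stretch of Elf3 held 4 cores, that of Elk3 held 2 and that of Elk1 held 1. Ets2, which was higher in PAP too and whose sequence is not shown, had 1 core in its window of 250 bases. Cores of this length are common: over windows of 250 bases, 93.4% of 32851 RefSeq promoters held at least 1 on either strand, 76.8% held at least 2 and 33.4% held at least 4. The longer ETS consensus CCGGAAGT was in none of the upstream windows of the matched members, and 2.88% of all promoters held it on either strand. The window of Elk3 and that of Elk1 each held 1 match to the SP1 motif GGGCGG, which 32.7% of all promoters held. No site was tested for binding.

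**Figure D1:**
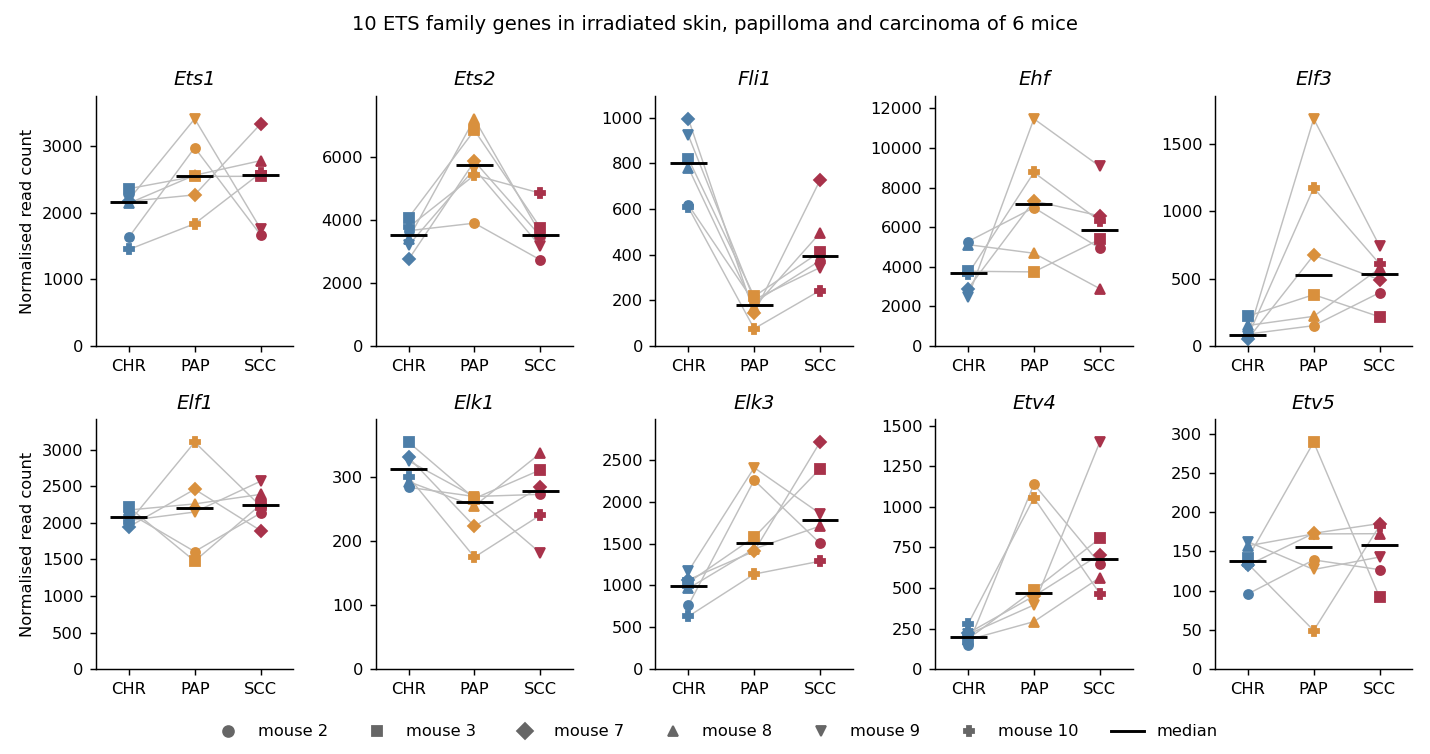
Normalised read counts of the 10 ETS genes (vertical axis, linear from 0, with a scale of its own for each gene) in CHR, PAP and SCC, with 1 symbol per mouse, grey lines joining the samples of a mouse and black bars at the median of 6. The highest library of Fli1 in PAP (216.7) lies under the lowest in CHR (606.6), the highest of Etv4 in CHR (278.3) lies under the lowest in PAP (292.9), and the median of Ets2 is 5740 in PAP beside 3531 in CHR and 3525 in SCC.

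In PAP vs CHR, 5 of the 10 members rose, 2 fell and 3 were not called. Elf3, Etv4, Ehf, Elk3 and Ets2 rose, while Fli1 and Elk1 fell. Over all genes 52.6% were called in this comparison, 23.3% higher and 29.3% lower. With 10 genes, 7 calls are near this background and are no result about the family. Their median log2 fold change was 0.54, beside 0.00 over all genes tested.

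In SCC vs CHR, 3 members rose (Elf3, Etv4 and Elk3), 1 fell (Fli1) and 6 were not called, beside 38.4% of all genes called, 15.8% higher and 22.7% lower. In SCC vs PAP, Fli1 rose, Ets2 fell and 8 members were not called, beside 9.85% of all genes called, 8.75% higher and 1.1% lower. The median log2 fold change of the members was 0.18 in SCC vs CHR and 0.05 in SCC vs PAP, beside -0.02 over all genes in both. These 3 comparisons share samples and are not independent of each other.

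The 6 values of a stage lay wholly apart from those of another stage for few members. In PAP vs CHR these were Fli1, Elk1 and Etv4, beside 33.8% of all genes. Elk3 and Etv4 were apart in SCC vs CHR, beside 19.9% of all genes. In SCC vs PAP Fli1 was the single member without overlap, beside 0.413% of all genes.

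The study sorted genes by a progression model, in which a gene is early when it differs between CHR and SCC and already between CHR and PAP, late when it differs between CHR and SCC and between PAP and SCC, and stepwise when it passes all 3 tests, always with the same sign. A model of the same form was fitted here to log2 of the deposited scores, with the mouse as a random effect and unadjusted p-values. The study used its own batch-corrected values, so its classes can differ from those given here. By it 4 members were early, namely Elf3, Elk3, Etv4 and Fli1. Over all genes 41.1% were early, 2.2% late and 0.523% stepwise. Ets2, Ehf and Elk1 passed in PAP vs CHR alone and therefore had no class, since their SCC vs CHR p-values were 0.787, 0.0896 and 0.108. Fli1 also passed in SCC vs PAP, with a p of 5.6e-05, but in the opposite direction.

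**Figure D2:**
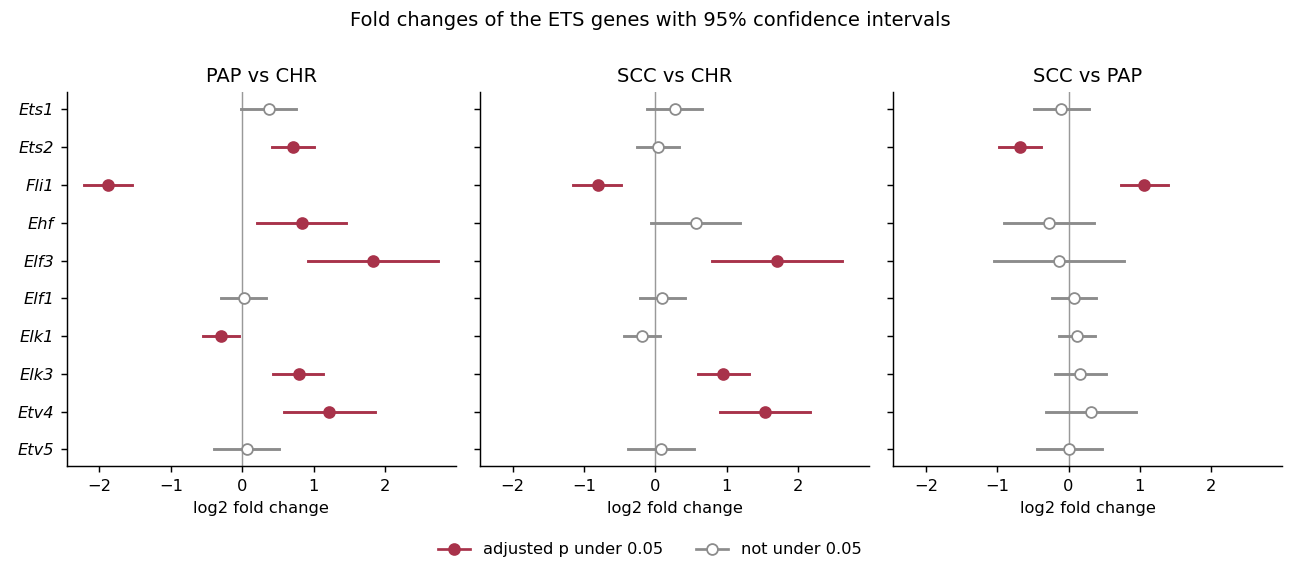
Log2 fold changes of the 10 ETS genes on the log2(value + 1) scale (horizontal axis) in the 3 comparisons, with points at the limma estimate and lines for the 95% confidence interval. Filled red points have an adjusted p under 0.05, 7 of them in PAP vs CHR, 4 in SCC vs CHR and 2 in SCC vs PAP.

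Levels between genes can be compared only per length, here as normalised reads per kb of exon in the basic GENCODE M21 annotation. Ets2 and Ehf had the highest levels of the 22 family genes in every stage. In CHR the level of Ets2 was 892.7 ± 120.1 reads per kb (mean ± SD, n = 6) and that of Ehf was 837.1 ± 247.8. In PAP they reached 1493 ± 301.5 and 1554 ± 606.5. Their order did not hold from mouse to mouse, since Ets2 was above Ehf in 4 of 6 mice in CHR, and Ehf was above Ets2 in 4 of 6 in PAP and in 5 of 6 in SCC.

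Among the members alone, Elf1, Ets1, Fli1 and Elk3 came next in CHR, at 481.1, 392.0, 238.2 and 222.8 reads per kb. The ranges of neighbours in this order overlapped, from Elf1 through to Elk3. Elk1 (88.8), Etv4 (85.4), Elf3 (52) and Etv5 (34.1) stood below them, and among these, too, the ranges of neighbours overlapped. In CHR the ranges were apart between Ehf and Elf1 and between Elk3 and Elk1.

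The order of the members differed in the tumours. Ehf stood before Ets2 in PAP and SCC, and Ets1 before Elf1 in PAP (511.8 and 502.1 reads per kb), with ranges that overlapped each time. Fli1, at place 5 of the 10 members in CHR, was at place 9 in PAP with 50.1 ± 15.5 reads per kb, below Elk1 in all 6 mice. Elf3 and Etv4 had 340.7 ± 288.8 and 265.3 ± 151.5 reads per kb in PAP, and their ranges overlapped with that of Elk3 (404.5 ± 121.0). The ranges in PAP were apart between Ets2 and Ets1 and between Etv4 and Elk1. In SCC the order began with Ehf (1271), Ets2 (923.1), Elf1 (517.8), Ets1 (481.8) and Elk3 (453.8). It went on with Etv4 (318.6), Elf3 (241.0), Fli1 (130.2), Elk1 (76.6) and Etv5 (37.3), and the ranges were apart between Ets2 and Elf1 and between Elk1 and Etv5. The summed level of all 22 genes was 5700 ± 245.7 reads per kb in CHR, 7142 ± 847.4 in PAP and 6534 ± 883.5 in SCC. The share of that sum held by Ehf and Ets2 together ran from 23.6 to 37.5% in CHR, from 38.6 to 45.4% in PAP and from 25.6 to 40.7% in SCC.

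**Figure D3:**
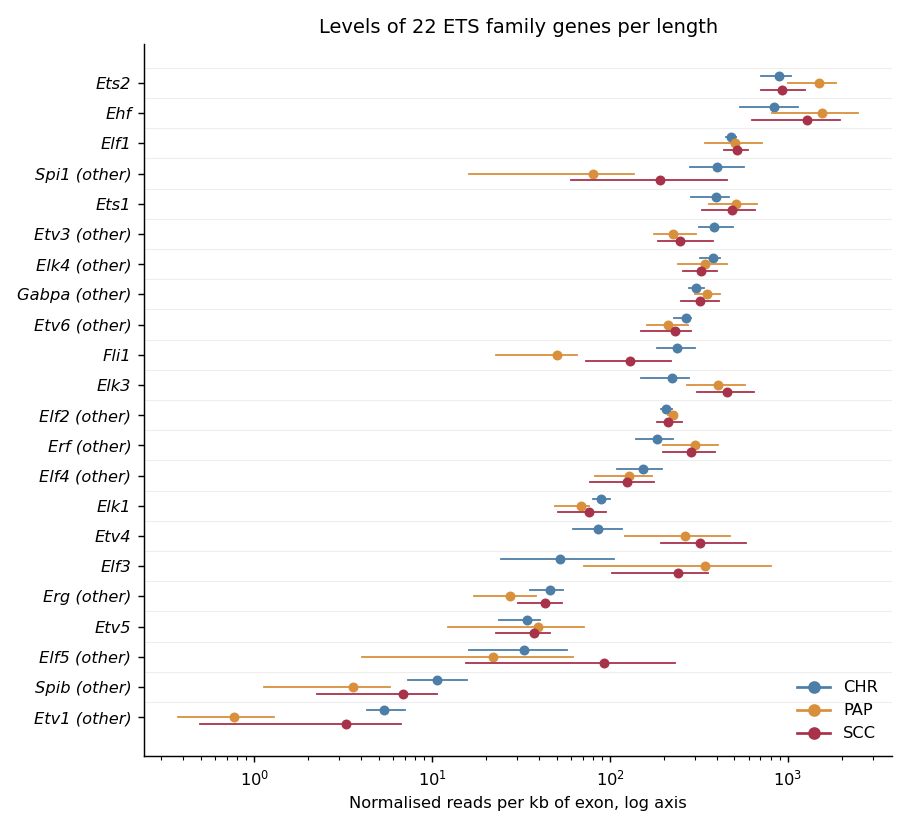
Levels of the 22 ETS family genes as normalised reads per kb of exon (horizontal log axis), with points at the mean of 6 libraries and lines from the lowest to the highest library of CHR, PAP and SCC. Genes are sorted by their mean in CHR and non-members are marked other; Ets2 and Ehf lead in all stages, and the PAP point of Fli1 (50.1) lies to the left of its CHR point (238.2).

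Ets1 and Ets2 are the founding members of the family, and ERK phosphorylates a threonine beside their pointed domain, which raises their activity. Transcription factor motif analysis in the study named ETS2 through its predicted target genes, which were higher across the progression. That is another measure than the transcript of the factor itself, which was examined here. Ets2 (ENSMUSG00000022895.16, GRCm38 chromosome 16, 95702075 to 95721051, plus strand) had 2743 reads in the lowest, 3531 in the median and 4068 in the highest CHR library. The corresponding counts in PAP were 3897, 5740 and 7209. They were 2731, 3525 and 4848 in SCC. The PAP library of mouse 2, at 3897, was the single papilloma within the range of CHR. Of the 6 carcinomas, 4 lay within that range, that of mouse 10 lay above it at 4848, and that of mouse 2 lay just below it at 2731.

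Ets2 rose in PAP vs CHR by 0.71 ± 0.13 (log2 fold change ± SE, adjusted p = 0.000703), and it did so in 6 of 6 mice. The fold within a mouse ran from 1.07 in mouse 2 to 2.14 in mouse 7. It fell in SCC vs PAP by -0.68 ± 0.13 (adjusted p = 0.0127), again in 6 of 6 mice. That second call was lost without mouse 3, 7 or 8 (adjusted p of 0.0524, 0.0688 and 0.0902), where the log2 fold change was -0.64, -0.67 and -0.61. In SCC vs CHR the log2 fold change was 0.04, with an interval of -0.25 to 0.33 and an adjusted p of 0.855. Other markers moved between PAP and SCC as well. Of 16 keratinocyte markers 4 fell and 0 rose there by limma and by limma-voom, and their summed level was lower in the carcinoma in 5 of 6 mice (log2 change -0.78 ± 0.87, mean ± SD). Of 10 skeletal muscle markers 9 rose. Over 18 libraries, with stage means taken away, the Pearson correlation of Ets2 was 0.35 with the keratinocyte sum and -0.72 with the muscle sum, and the part of either in the values of Ets2 was not tested.

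Ets1 (ENSMUSG00000032035.15, chromosome 9, 32636221 to 32757820, plus strand), which is abundant in lymphocytes and endothelium and is also made by keratinocytes, was not called in any comparison. Its counts were 1448, 2156 and 2361 in CHR (lowest, median and highest), 1835, 2554 and 3410 in PAP, and 1668, 2572 and 3332 in SCC. The stages overlapped throughout, although the papilloma was above the skin in 6 of 6 mice. The log2 fold change was 0.37 in PAP vs CHR (interval -0.02 to 0.76, adjusted p = 0.105) and 0.27 in SCC vs CHR (interval -0.12 to 0.66, adjusted p = 0.262).

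Fli1 and its close relative Erg act in endothelium and in blood cells and are little known in keratinocytes. Fli1 (ENSMUSG00000016087.13, chromosome 9, 32422204 to 32542861, minus strand) had 606.6, 800.5 and 994.4 reads in the lowest, median and highest CHR library. Its PAP counts were 75.5, 180.3 and 216.7. In SCC they were 242.6, 392.6 and 725.7. All papillomas were below all skin samples and below all carcinomas, while the carcinoma of mouse 7, the highest of them, reached into the range of CHR.

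The fall of Fli1 in PAP vs CHR was the largest change of any member on the fitted scale, though in limma-voom on recovered reads it came after Elf3 (-2.27 against 2.60). The fitted change was -1.88 ± 0.16 (adjusted p = 1.62e-06), a fall in 6 of 6 mice. On normalised reads the papilloma was between 3.23 and 8.03 times below the skin of the same mouse. Fli1 rose again in SCC vs PAP, by 1.06 ± 0.16 (adjusted p = 0.00917, 6 of 6 mice), and remained lower than in CHR in SCC, by -0.81 ± 0.16 (adjusted p = 0.00153, lower in 6 of 6 mice). The call in SCC vs PAP was lost without mouse 7 (log2 fold change 0.90, adjusted p = 0.0537) and without mouse 8 (1.03, adjusted p = 0.0794), and limma then called 0 genes in SCC vs PAP, although 2450 and 2594 had an unadjusted p under 0.05.

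Fli1 is known to be expressed in endothelial and myeloid cells. Their summed markers were lower in papilloma than in skin in 5 of 6 mice (endothelial) and in 6 of 6 (myeloid). The summed level of 14 endothelial markers, of which 7 fell and 2 rose from CHR to PAP, ran from 8644 to 13063 reads in CHR, from 5595 to 9692 in PAP and from 8464 to 13473 in SCC. That of 14 myeloid markers ran from 55937 to 87118, from 2687 to 13493 and from 8063 to 83626, and 13 of the 14 fell from CHR to PAP while 12 rose from PAP to SCC. After the stage means were taken away, the Pearson correlation of Fli1 with these sums over 18 libraries was 0.84 for endothelial and 0.93 for myeloid markers. It was not particular to these lists, with 0.97 for B cell and 0.82 for T and NK cell markers. For dermal fibroblast markers it was 0.74, for pericyte and smooth muscle markers 0.62, and for keratinocyte markers -0.53. These libraries share mice and tissue pieces, so the correlations are a description, and the part of these cells in the change of Fli1 was not tested.

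Erg (ENSMUSG00000040732.20, chromosome 16, 95359169 to 95586593, minus strand) moved in the same directions as Fli1 by less. Its mean count went from 159.6 ± 25.8 in CHR to 94.4 ± 30.7 in PAP and 149.3 ± 29.3 in SCC. It fell in PAP vs CHR by -0.52 ± 0.13 (adjusted p = 0.00513, 6 of 6 mice) and rose in SCC vs PAP by 0.45 ± 0.13 (adjusted p = 0.0489, 6 of 6 mice). The latter call was lost in limma-voom (adjusted p = 0.051). Endothelial markers went both ways. Of the 7 that fell in PAP vs CHR, Pecam1 and Tek changed most, by -0.96 ± 0.17 and -1.88 ± 0.21 (adjusted p of 0.000361 and 9.68e-06). The 2 that rose were Emcn and Flt1, by 0.83 ± 0.12 and 0.40 ± 0.11 (adjusted p of 8.24e-05 and 0.0093). Kdr and Cdh5, which encode a VEGF receptor and the cadherin of endothelial junctions, were not called, at 0.10 and 0.08 (adjusted p of 0.577 and 0.754).

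**Figure D4:**
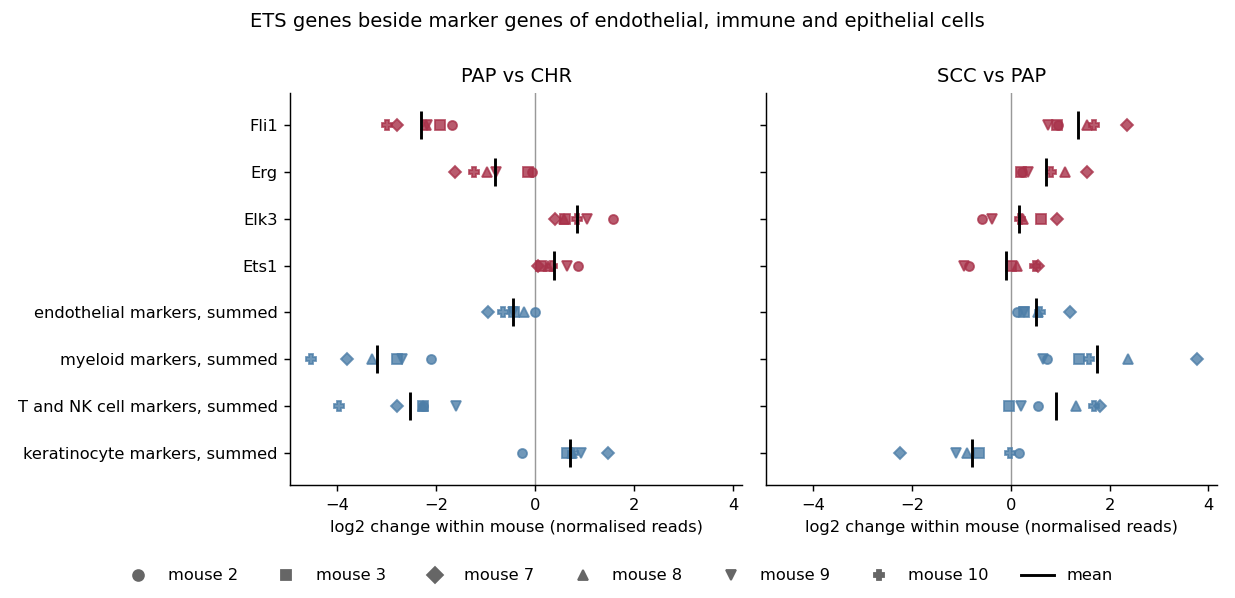
Log2 change of normalised reads within each mouse (horizontal axis) in PAP vs CHR and SCC vs PAP for Fli1, Erg, Elk3 and Ets1 in red, beside the summed reads of marker lists in blue, with 1 symbol per mouse and a black bar at the mean. Fli1 and the summed myeloid markers are below 0 in all 6 mice in PAP vs CHR and above 0 in all 6 in SCC vs PAP. Elk3 is above 0 in all 6 mice in PAP vs CHR.

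Ehf and Elf3 belong to the epithelium-specific branch of the family and are known for roles in keratinocyte differentiation, where Elf3 binds promoters of cornified envelope genes. Elf3 (ENSMUSG00000003051.13, chromosome 1, 135253575 to 135258568, minus strand; promoter shown above) had 51.1, 80.9 and 220.6 reads in the lowest, median and highest CHR library. Its PAP counts were 150.2, 527.1 and 1686. Those in SCC were 216.1, 533.2 and 742.0. The highest skin sample, that of mouse 3, overlapped with the low papillomas of mice 2 and 8, and papillomas spread over a far wider range than carcinomas.

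Elf3 rose in PAP vs CHR by 1.84 ± 0.42 on the log2(value + 1) scale (adjusted p = 0.0028, 6 of 6 mice) and in SCC vs CHR by 1.71 ± 0.42 (adjusted p = 0.00714, 5 of 6 mice). On normalised reads the mean was 6.55 times that of CHR in PAP and 4.63 times in SCC. Within a mouse the papilloma was from 1.45 times above its skin in mouse 8 to 22.8 times in mouse 9. In SCC vs PAP the log2 fold change was -0.13 (adjusted p = 0.884), and its wide interval of -1.05 to 0.78 took in changes in either direction. Of its exon length, 7.73% overlaps an antisense gene, Gm26642, and because the strand setting of the counting was not stated, reads of the 2 cannot be told apart there.

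Ehf (ENSMUSG00000012350.15, chromosome 2, 103263433 to 103303278, minus strand) was abundant throughout. Its counts were 2463, 3702 and 5274 in CHR, 3739, 7157 and 11472 in PAP, and 2892, 5845 and 9068 in SCC. Mouse 9 had the lowest skin value and the highest papilloma and carcinoma values, and in mice 3 and 8 the papilloma was not above the skin. Ehf rose in PAP vs CHR by 0.84 ± 0.29 (adjusted p = 0.0275, 4 of 6 mice), a call that was lost without mouse 7, 9 or 10, with log2 fold changes of 0.74, 0.57 and 0.75 and adjusted p of 0.0906, 0.0955 and 0.0885. In SCC vs CHR it was 0.57 with an interval of -0.06 to 1.19 (adjusted p = 0.141), and this passed without mouse 8 (0.84, adjusted p = 0.0408).

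Cornified envelope and late differentiation genes, the group that Elf3 and Ehf are linked to, did not move as a block. Of 16 measured, 6 rose and 2 fell from CHR to PAP, and 8 rose and 5 fell from CHR to SCC. Their median log2 fold changes were 0.75 and 0.80. Their summed reads did not rise, with log2 changes of -0.20 ± 0.83 in PAP vs CHR (mean ± SD, lower in 3 of 6 mice) and -0.32 ± 0.43 in SCC vs CHR (lower in 5 of 6). That sum, from 42653 to 82158 reads in CHR, leans on its most abundant genes there. These were Klk7 and Flg2, with 24656 ± 6738 and 14946 ± 7506 reads. The filaggrin-type gene Flg2 and the small proline-rich gene Sprr4 were the 2 that fell in PAP vs CHR, by -3.83 ± 0.79 and -3.32 ± 0.42 (adjusted p of 0.00135 and 3.33e-05). Those that rose included Sprr2i and the transglutaminase gene Tgm3, by 2.47 ± 0.44 and 2.21 ± 0.46 (adjusted p of 0.000488 and 0.00132). The count of Sprr2i is uncertain, since the Sprr2 genes are similar copies that can share reads. In SCC vs PAP 0 were called by limma or limma-voom, with 1 at an unadjusted p under 0.05.

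Elf1 (ENSMUSG00000036461.16, chromosome 14, 79481194 to 79582494, plus strand), a broadly expressed factor studied mostly in blood cells, was not called in any comparison. It had 1945, 2083 and 2214 reads in CHR (lowest, median and highest), 1477, 2202 and 3102 in PAP, and 1894, 2237 and 2568 in SCC. Skin samples lay close together, with an SD of 105.5 against 592.7 among papillomas, where mice 2 and 3 were below and mouse 10 far above the skin. The log2 fold change was 0.02 in PAP vs CHR (interval -0.29 to 0.33, adjusted p = 0.923) and 0.10 in SCC vs CHR (interval -0.22 to 0.41, adjusted p = 0.625). An antisense gene, Wbp4, overlaps 7.55% of the exon length of Elf1.

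Elk1, Elk3 and Elk4 are ternary complex factors, which bind beside serum response factor (Srf) at serum response elements and are phosphorylated by ERK. Elk1 activates transcription there, whereas Elk3, also called Net, is a repressor until it is phosphorylated and is prominent in endothelium. Elk1 (ENSMUSG00000009406.13, X chromosome, 20933395 to 20950608, minus strand) had 284.3, 313.0 and 354.9 reads in the lowest, median and highest CHR library. In PAP it had 175.1, 260.9 and 269.9. The SCC counts were 181.8, 279.1 and 337.5, which spanned most of both ranges.

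Elk1 fell in PAP vs CHR by -0.30 ± 0.12 (adjusted p = 0.0407), lower in 6 of 6 mice and with every papilloma below every skin sample. The change was small, from 1.05 times below the skin in mouse 2 to 1.72 times in mouse 10. The call did not hold under quantile normalisation (-0.05, adjusted p = 0.692) or without mouse 3, 7, 8 or 10, with log2 fold changes of -0.30, -0.27, -0.33 and -0.24 and adjusted p of 0.0957, 0.123, 0.0556 and 0.14. In SCC vs CHR the log2 fold change was -0.19 (interval -0.44 to 0.06, adjusted p = 0.22). The study named ELK1 as an early factor, again through motifs in predicted target genes and not through this transcript.

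Elk3 (ENSMUSG00000008398.15, chromosome 10, 93247414 to 93311135, minus strand) had 630.6, 999.5 and 1170 reads in CHR. Its counts were 1136, 1506 and 2407 in PAP and 1290, 1784 and 2712 in SCC. All carcinomas were above all skin samples, and among papillomas only that of mouse 10, at 1136, reached into the range of CHR. Elk3 rose in PAP vs CHR by 0.79 ± 0.16 (adjusted p = 0.00142) and in SCC vs CHR by 0.95 ± 0.16 (adjusted p = 0.000772), in 6 of 6 mice each time. Its log2 fold change in SCC vs PAP was 0.16 (interval -0.19 to 0.52).

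In papillomas, where Elk3 rose, the marker sums of endothelial and myeloid cells were lower. Of the 14 endothelial markers 7 fell and 2 rose. In PAP vs CHR the summed endothelial markers changed by -0.45 ± 0.34 on the log2 scale (mean ± SD of 6 mice, lower in 5 of 6) and the summed myeloid markers by -3.21 ± 0.87 (lower in 6 of 6). Within stages, the Pearson correlation of Elk3 over 18 libraries was 0.65 for endothelial, 0.81 for myeloid and -0.57 for keratinocyte markers. It was not particular to these lists. For B cell markers it was 0.79, for pericyte and smooth muscle markers 0.65, and for T and NK cell and dermal fibroblast markers 0.58 each. The part of any of these cells in the values of Elk3 was not tested. Elk4 had a mean of 1762 ± 140.3 reads in CHR, 1577 ± 332.2 in PAP and 1514 ± 277.8 in SCC and was not called (adjusted p of 0.235 in PAP vs CHR).

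Targets of Srf and its ternary complex partners went both ways. Of 10 measured, 3 rose and 2 fell from CHR to PAP, and 3 rose and 4 fell from CHR to SCC. Junb, an AP-1 subunit, rose in PAP vs CHR by 1.15 ± 0.18 (adjusted p = 0.000188), and Egr2, a zinc finger factor of the immediate early response, fell by -2.73 ± 0.47 (adjusted p = 0.000367). Egr1 was the 1 target called in SCC vs PAP, lower by -0.61 ± 0.18 (adjusted p = 0.0455).

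Etv4 and Etv5 form the PEA3 branch with Etv1. Their transcription is itself driven by receptor tyrosine kinase and ERK signalling in many tissues, so that they serve as readouts of that pathway. Etv4 (ENSMUSG00000017724.14, chromosome 11, 101769742 to 101785371, minus strand) had 148.5, 200.4 and 278.3 reads in the lowest, median and highest CHR library. Its PAP counts were 292.9, 468.8 and 1139. The SCC counts were 465.6, 677.7 and 1398. No tumour of either kind overlapped with skin, and the papillomas of mice 2 and 10 and the carcinoma of mouse 9 stood highest, at 1139, 1055 and 1398 reads.

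Etv4 rose in PAP vs CHR by 1.22 ± 0.29 (adjusted p = 0.00362) and in SCC vs CHR by 1.53 ± 0.29 (adjusted p = 0.0015), in 6 of 6 mice each time. On normalised reads the means were 3.1 and 3.73 times that of CHR. Within a mouse the papilloma was between 1.62 and 7.67 times above the skin. The log2 fold change in SCC vs PAP was 0.31 with an interval of -0.32 to 0.94 (adjusted p = 0.567).

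Etv5 (ENSMUSG00000013089.15, chromosome 16, 22381309 to 22439719, minus strand) had the lowest level per kb of the members in every stage and was not called in any comparison. Its counts were 95.8, 138.0 and 162.4 in CHR, 49.3, 155.7 and 289.2 in PAP, and 91.9, 157.7 and 185.5 in SCC. Both the lowest and the highest of the 18 libraries were papillomas, those of mice 10 and 3. The log2 fold change was 0.07 in PAP vs CHR (interval -0.39 to 0.52, adjusted p = 0.814) and 0.08 in SCC vs CHR (interval -0.38 to 0.54, adjusted p = 0.792). Under quantile normalisation the first of these was 0.50 with an adjusted p of 0.0318.

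Etv1, the third member of this branch and no member of the set described here, had few reads, with 38.5 ± 8.64 reads in CHR, 5.57 ± 2.63 in PAP and 23.7 ± 15.4 in SCC. It fell in PAP vs CHR by -0.84 ± 0.13 (adjusted p = 0.00015, 6 of 6 mice) and rose in SCC vs PAP by 0.50 ± 0.13 (adjusted p = 0.0289, 6 of 6 mice).

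For 5 pairs of close relatives, which were chosen after their values were seen, the changes within mice are given side by side as a description. Exact tests that flipped the signs of the differences in 6 mice gave no adjusted p under 0.05 (15 tests, lowest 0.0586). With 6 mice such a p cannot go below 0.031, and the pairs were chosen on the same values, so these tests decide nothing. In PAP vs CHR, the log2 change of normalised reads in Etv4 exceeded that in Etv5 by 1.42 ± 1.20 (mean ± SD, higher in 6 of 6 mice), and in SCC vs CHR by 1.72 ± 0.97 (6 of 6 mice). The change in Elk3 exceeded that in Elk1 in 6 of 6 mice in both, where Elk1 minus Elk3 was -1.22 ± 0.36 and -1.25 ± 0.36. Elf3 changed more than Ehf in PAP vs CHR in 6 of 6 mice (Ehf minus Elf3 -1.54 ± 1.05), and Fli1 fell more than Erg (-1.49 ± 0.26, 6 of 6 mice). Ets1 minus Ets2 was -0.35 ± 0.65, 0.24 ± 0.28 and 0.59 ± 0.67 in PAP vs CHR, SCC vs CHR and SCC vs PAP, with the difference above 0 in 1, 5 and 4 of 6 mice.

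The Ras-ERK cascade itself, which phosphorylates several members, went both ways at the transcript level. Of its 13 genes, 5 rose and 3 fell from CHR to PAP, 2 rose and 5 fell from CHR to SCC, and 0 were called in SCC vs PAP by limma or limma-voom, with 1 at an unadjusted p under 0.05. Hras rose in PAP vs CHR by 0.77 ± 0.14 and Map2k1, which encodes the ERK kinase MEK1, by 0.69 ± 0.10 (adjusted p of 0.000622 and 9.97e-05). The 3 that fell there were Ksr1, Mapk3, which encodes ERK1, and Rps6ka3. Their changes were -0.55 ± 0.14, -0.47 ± 0.09 and -0.31 ± 0.10 (adjusted p of 0.00496, 0.00109 and 0.02). Transcript levels say nothing of the phosphorylation of these kinases or of the ETS proteins, which was not measured.

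Among 15 genes induced by ERK or acting as its feedback inhibitors, 7 rose and 3 fell from CHR to PAP, and 7 rose from CHR to SCC. By limma, limma-voom and unadjusted p alike, 0 were lower in SCC. The median log2 fold change was 0.48 and 0.55. Phlda1 and Ier3 rose in PAP vs CHR by 1.92 ± 0.25 and 1.90 ± 0.27 (adjusted p of 3.62e-05 and 7.82e-05). The 3 that fell there were Dusp4, Spry1 and Spred1, by -0.77 ± 0.25, -0.61 ± 0.16 and -0.44 ± 0.13 (adjusted p of 0.0207, 0.00674 and 0.00937). Dusp7, an ERK phosphatase, rose from 1567 ± 189.0 reads in CHR to 5417 ± 772.3 in PAP and had 3899 ± 691.4 in SCC, where it was lower than in PAP by -0.47 ± 0.12 (adjusted p = 0.0314). The summed reads of this list were higher in the papilloma and in the carcinoma than in skin in 6 of 6 mice. Over 18 libraries, with stage means taken away, Etv4 had a Pearson correlation of 0.60 with that sum and Etv5 one of -0.30.

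Proteases and invasion genes with known ETS sites in their promoters were the other target group examined. Of 12 measured, 5 rose and 3 fell from CHR to PAP, and 6 rose from CHR to SCC, where 0 were lower by limma, limma-voom or an unadjusted p under 0.05. The collagenase gene Mmp13 rose in PAP vs CHR from 1024 ± 960.7 to 11209 ± 2795 reads (log2 fold change 3.74 ± 0.59, adjusted p = 0.000177), and Mmp10 and Mmp9 rose by 3.35 and 2.72. Those that fell in PAP were Mmp2, Mmp14 and Timp1, by -2.61, -0.68 and -1.51 (adjusted p of 0.000209, 0.0366 and 0.0268). The genes called in SCC vs PAP were Mmp2, Mmp14 and Spp1, which were higher in SCC by 2.01, 0.99 and 1.99 (adjusted p of 0.0149, 0.0274 and 0.0386). Fibroblast markers Pdgfra and Dcn were higher there as well, by 2.52 and 2.73 (adjusted p of 0.0137 and 0.0257), and their part in these values was not tested.

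Of the 12 other ETS genes in the table, 1 was higher, 6 were lower and 5 were not called in PAP vs CHR, where 23.3% of all genes were higher and 29.3% lower. Their median log2 fold change was -0.38, beside 0.00 over all genes. In 4 of the 12 the stages did not overlap, as in 33.8% of all genes. In SCC vs CHR 1 was higher and 2 were lower, beside 15.8% and 22.7% of all genes. In SCC vs PAP 2 were higher by limma (Erg and Etv1) and 2 by limma-voom (Etv1 and Spi1, where Spi1 had an adjusted p of 0.048), beside 8.75% of all genes by limma, and 0 were lower by limma, limma-voom or an unadjusted p under 0.05.

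Erf, a repressor that ERK exports from the nucleus, was the gene that rose, by 0.64 ± 0.11 from CHR to PAP and by 0.56 ± 0.11 from CHR to SCC (adjusted p of 0.000357 and 0.00163), in 6 of 6 mice each time. Spi1, which encodes the myeloid and B cell factor PU.1, fell most on the fitted scale, from 808.6 ± 202.4 reads in CHR to 163.6 ± 84.1 in PAP (log2 fold change -1.99 ± 0.27, adjusted p = 5.95e-05), and had 387.6 ± 279.7 in SCC. The repressors Etv3 and Etv6 fell in PAP vs CHR by -0.76 ± 0.18 and -0.34 ± 0.12 (adjusted p of 0.00339 and 0.0264), and the B cell factor Spib by -0.50 ± 0.11 (adjusted p = 0.00259). Etv3 also fell in SCC vs CHR, by -0.65 ± 0.18 (adjusted p = 0.0131), as did Spi1 by -1.10 ± 0.27 (adjusted p = 0.00728).

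Elf2, Elf4, Elf5 and Gabpa were not called in any comparison. The level of Elf2 had means of 1658 ± 87, 1798 ± 79.7 and 1684 ± 193.4 reads in CHR, PAP and SCC. Elf5, a factor of glandular and skin epithelium, ran from 41.2 to 614.4 reads among carcinomas.

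The genes whose pattern was most like that of each member were taken over 18 libraries of log2(value + 1) with the stage means removed, among 11675 genes with a mean of at least 100 reads. Fli1 had the closest, with a Pearson r of 0.97 for Itga4, Tlr7 and C3ar1, a leukocyte integrin, a Toll-like receptor and a complement receptor. For Ets1 they were Tbcel, Vcam1 and Il2rg (r of 0.83, 0.80 and 0.80), and for Elk3 they were Usp35, Dpy19l1 and Myef2 (0.90, 0.89 and 0.88). Those of Elk1 were Tbc1d8b, Fem1c and Ptprb (0.88, 0.87 and 0.87). For a description over so few libraries these are the highest of many values, and they carry no test.

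Among the epithelial members, Ehf was most like Pa2g4, Zdhhc13 and Ppif (0.91, 0.87 and 0.85), and Elf3 most like Abhd12, Herc4 and Tmprss11g (0.91, 0.87 and 0.86). Elf1 was most like Tgm1, the transglutaminase of the cornified envelope, at 0.91, followed by Dock9 and Ppp2r2a (0.89 and 0.87). For Ets2 they were Serinc2, Efcab14 and Bsdc1 (0.86, 0.84 and 0.83), for Etv4 Fam84b, Stbd1 and Fam175b (0.90, 0.89 and 0.88), and for Etv5 Nsun4, Frmd4a and Ror1 (0.87, 0.86 and 0.83).

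Members also varied together within stages. The highest Pearson correlations between members, with stage means removed, were 0.80 for Elk3 and Fli1, 0.74 for Ets1 and Elk3, and 0.70 for Ets1 and Fli1. The lowest were -0.64 for Elf1 and Etv5 and -0.61 both for Elf1 and Fli1 and for Ets2 and Etv4. With the summed endothelial markers, Ets1, Elk1, Elk3 and Fli1 had correlations of 0.69, 0.78, 0.65 and 0.84, and Etv5 had 0.48. Those of Ehf, Elf1, Elf3, Etv4 and Ets2 were -0.51, -0.64, -0.36, -0.14 and -0.01. These values were not particular to the endothelial list. With the summed myeloid markers, Ets1, Elk1, Elk3 and Fli1 had 0.60, 0.60, 0.81 and 0.93, while Ehf and Elf1 had -0.16 and -0.61. The part of these cells was not tested. Elk3 and Fli1, which varied together within stages, moved in opposite directions between skin and papilloma.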

How the data were processed

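RNA sequencing reads of 18 libraries (6 mice, 3 stages) were aligned by the authors with MOSAIK to the mouse genome and counted per gene, and the submitters' processing notes name HTSeq and mm10. The authors then scaled the counts per library and transformed them to stabilize their variance. The deposited values are a score on the linear scale of that transformation, in whole numbers, with 0 reads at 39. Versions, annotation release and strandedness are not given in the sources used here. The methods mention a scaling of batch medians, but low values kept the steps of whole reads in every library.

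The transformation was inverted with a fitted zero level of 39.13. Of all values 99.3% were whole reads by the definition used, and 100.0% of those under 100. Size factors ran from 0.835 to 1.178 and recovered depth from 15.4 to 21.0 M reads (median 18.9 M), which limits the precision of weakly expressed genes. Entries with a number in place of a symbol (21 of 14542, at most 0.236% of a library's total) were left out. Any pair of libraries shared at most 2.24% of its values.

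Stages and mouse numbers came from the sample titles. A count model had been foreseen only for raw counts, so limma (3.58.1, R 4.3.3) was fitted to log2(value + 1) of all libraries, with stage and mouse as fixed terms, two-sided, and Benjamini-Hochberg adjustment over 14521 genes. The fit was tested on simulated data. The progression model was a mixed model checked against nlme (3.1.168). Same-numbered samples came from the same animal, and the correlation of their deviations from the stage means was 0.06 for CHR and PAP, 0.12 for CHR and SCC and 0.07 for PAP and SCC, beside -0.01, -0.02 and -0.01 between different mice. The samples are 1 piece per lesion, so p-values cover the spread between mice and pieces together.

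The ETS members and the gene lists were chosen with earlier results of these data known. Named genes are all members and other ETS genes, the 2 genes of each list with the largest called change in PAP vs CHR and the 2 in SCC vs PAP, the invasion genes of 1 direction where the text counts them (a gene of that list is not reported here), and the 3 genes most alike to each member. The invasion genes, the pairs of relatives, and Emcn, Flt1, Kdr, Cdh5, Klk7, Sprr2i and Tgm3 were chosen after their values were seen. So were Ksr1, Mapk3, Rps6ka3, Dusp4, Spry1 and Spred1, named as the genes of their lists that fell in PAP vs CHR. Symbols and exon lengths come from GENCODE M21. Alternatives were other pseudocounts, limma-voom, quantile normalisation, a read minimum, a variance trend, 2-stage fits, no mouse block and leaving out each mouse.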

Additional observations from a re-analysis of the deposited data

Results flagged for a closer look

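In 30 groups of 6 libraries (10 members in 3 stages), 1 value stood apart from the rest of its group by Dixon's ratio. The SCC of mouse 9 had 1398 normalised reads of Etv4, while the other 5 carcinomas lay between 465.6 and 805.0. The gap to the nearest carcinoma was 0.636 of the whole range, above the 95% critical value for 6 samples. Chance alone flags about 1 in 20 groups. Without mouse 9, Etv4 was still called in SCC vs CHR and in PAP vs CHR.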

How the results depend on the processing

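Over the alternatives, 13 called values of single members kept their call in 112 of 117 values from other settings and in 66 of 78 values from leaving out a mouse, and none of them turned its direction. Elf3, Elk3, Etv4 and Fli1 in PAP vs CHR and SCC vs CHR, and Ets2 in PAP vs CHR, kept theirs in all 15 alternatives. The count of called members in SCC vs PAP, 2, was 0 with only the 2 stages compared and 0 in limma-voom without the mouse block (chosen after seeing the data), where 2 members had an unadjusted p under 0.05 each time, and from 0 to 2 over the leave-one-out fits (1 without mouse 3, 0 without mouse 7 and 0 without mouse 8). In those 2 settings Ets2 and Fli1 both had an adjusted p of 0.0512 and 0.102. With no replicate block in limma, 7, 4 and 2 members were called in the 3 comparisons as with the pairing, so the block changed no member's call, although the genes called in SCC vs PAP went from 1430 to 810.

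Over all genes, limma called 471 genes in SCC vs PAP without mouse 3, 0 without mouse 7 or 8, 0 with only the 2 stages compared (2830 at an unadjusted p under 0.05), and limma-voom without the block called 0 (3083). Quantile normalisation took the median of all genes from 0.00, -0.02 and -0.02 to 0.16, 0.10 and -0.07 in the 3 comparisons, and the share of higher genes among the called ones from 44.4 to 62.4%, from 41 to 57.8% and from 88.8 to 68.5%. Relative to that median, Elk1 and Etv5 were at -0.22 and 0.34 in PAP vs CHR. Fits of only the 2 stages also called Ets1 in PAP vs CHR (0.37, adjusted p = 0.0391).

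Values that turned their direction were all uncalled. In PAP vs CHR they were Elf1 (-0.01 under quantile normalisation, and -0.10 to 0.13 over the leave-one-out fits, -0.04 without mouse 7) and Etv5 (-0.07 to 0.25 likewise). In SCC vs CHR this was Ets2 (-0.03 to 0.13 likewise, -0.02 without mouse 7). In SCC vs PAP they were Ets1 (-0.23 to 0.07 likewise, 0.04 without mouse 2), Elf3 (-0.39 to 0.06, 0.01 without mouse 10), Elf1 (-0.02 to 0.19), Elk1 (-0.02 under quantile normalisation) and Etv5 (-0.04 in limma-voom, -0.21 under quantile normalisation, and -0.21 to 0.25 over the leave-one-out fits, -0.01 without mouse 9). The cause of these changes was not tested.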
